A study of Mus musculus with 16 samples.

Results

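The interferon stimulated genes described here are 43 genes that mouse cells switch on when interferon reaches them, taken by gene symbol from the 55421 genes of the count table. All 43 passed the minimum of 10 counts in total, as did 23018 genes overall. Bulk RNA-seq of liver was available for 4 groups of 4 libraries from male C57BL/6 mice. The control groups held 2 wildtype mice given AAV8 Tbg-Cre and 2 wildtype mice given AAV8-Tbg-saCAS9/U6-sgRNA-Rosa26, a guide to a neutral locus. The HIRA KO groups held 2 HIRA fl/fl mice given AAV8 Tbg-Cre and 2 wildtype mice given AAV8-Tbg-saCAS9/U6-sgRNA-HIRA. All groups thus received a viral vector, and none was left without one. HIRA deposits histone H3.3 outside DNA replication, and the Tbg promoter is active in hepatocytes, so the other cells of the liver kept the gene. Injection took place at 6 months, part of the liver was removed 4 weeks later (before regeneration), and the regrown liver was taken 5 days after that (after regeneration). The lobe and the way tissue was obtained changed together with the time point, so their effects cannot be told apart from that of regeneration. Because a whole liver piece was sequenced, fewer cells of a type and less RNA per cell cannot be told apart either.

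Interferons are secreted signals of antiviral defence. Type I interferon binds the receptor Ifnar1 and Ifnar2, whose kinases Jak1 and Tyk2 activate a complex that holds Stat2 and Irf9 and binds the interferon-stimulated response element in front of target genes. Interferon gamma acts through a second motif, the gamma-activated site. Hepatocytes, Kupffer cells and endothelial cells of the liver all respond. The 43 genes fall into transcription factors and feedback genes (Irf7, Irf9, Stat2, Usp18), sensors of foreign nucleic acid (Ddx58, Ifih1, Dhx58, Zbp1, Eif2ak2), the OAS enzymes that activate RNase L and their relatives, the IFIT proteins that bind viral RNA, the IFI27 family, the interferon-inducible GTPases, the chemokine Cxcl10, and 14 other genes, most of them antiviral, such as Isg15, Mx1, Rsad2 and Bst2.

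The promoters of 6 of these genes are printed because they show what the genes share in sequence and where they do not. The 250 bases before the transcription start are given 5′ to 3′ on the strand of each gene, from RefSeq on GRCm38.p6, with matches to the core of the interferon-stimulated response element in capitals. Isg15 encodes a ubiquitin-like protein that is joined to other proteins, and its window is chr4:156200819-156201068 (minus strand). Ifit1 binds viral RNA (chr19:34640639-34640888, plus strand), and Oas1a makes the activator of RNase L (chr5:120907526-120907775, minus strand). Gbp3 is a guanylate-binding protein (chr3:142559794-142560043, plus strand), Bst2 or tetherin holds budding virus on the cell (chr8:71537473-71537722, minus strand), and Irf7 is the transcription factor that amplifies interferon production (chr7:141266425-141266674, minus strand).
Isg15: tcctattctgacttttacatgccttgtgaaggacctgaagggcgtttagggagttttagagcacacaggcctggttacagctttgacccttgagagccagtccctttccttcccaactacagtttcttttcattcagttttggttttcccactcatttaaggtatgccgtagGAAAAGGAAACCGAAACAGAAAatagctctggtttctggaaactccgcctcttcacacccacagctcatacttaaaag
Ifit1: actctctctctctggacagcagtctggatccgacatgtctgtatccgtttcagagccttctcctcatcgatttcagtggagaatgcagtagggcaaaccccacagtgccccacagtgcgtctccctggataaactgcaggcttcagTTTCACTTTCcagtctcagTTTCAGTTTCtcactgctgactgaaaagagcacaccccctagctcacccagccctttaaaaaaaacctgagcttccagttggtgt
Oas1a: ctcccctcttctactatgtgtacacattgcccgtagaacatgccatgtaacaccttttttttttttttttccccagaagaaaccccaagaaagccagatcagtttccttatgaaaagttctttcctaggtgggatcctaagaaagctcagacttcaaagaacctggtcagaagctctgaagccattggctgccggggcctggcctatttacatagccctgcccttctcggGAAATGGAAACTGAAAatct
Gbp3: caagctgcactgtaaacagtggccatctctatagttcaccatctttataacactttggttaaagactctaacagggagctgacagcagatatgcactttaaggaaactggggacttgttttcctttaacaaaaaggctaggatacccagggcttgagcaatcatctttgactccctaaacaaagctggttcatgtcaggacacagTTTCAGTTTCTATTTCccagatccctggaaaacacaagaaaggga
Bst2: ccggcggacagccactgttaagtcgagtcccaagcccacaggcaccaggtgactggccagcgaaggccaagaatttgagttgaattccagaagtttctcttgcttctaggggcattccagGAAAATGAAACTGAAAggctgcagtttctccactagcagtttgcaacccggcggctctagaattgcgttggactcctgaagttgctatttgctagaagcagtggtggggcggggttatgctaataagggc
Irf7: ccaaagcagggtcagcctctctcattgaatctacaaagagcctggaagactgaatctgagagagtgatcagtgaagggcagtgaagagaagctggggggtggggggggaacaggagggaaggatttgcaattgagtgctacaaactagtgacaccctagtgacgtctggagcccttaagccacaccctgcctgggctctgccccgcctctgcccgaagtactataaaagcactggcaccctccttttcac

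The core searched was GAAANNGAAA on either strand, and overlapping matches were counted separately. Isg15 held 3 overlapping matches beginning 78 bases before the start, and Ifit1 held 2 separate ones, the farther beginning 104 bases before it. Oas1a, Gbp3 and Bst2 held 2 overlapping matches each, beginning 20, 45 and 130 bases before the start. The Irf7 window held none. RefSeq windows, which run from 250 bases before to 50 bases after the start, were at hand for 31 of the 43 genes, and 19 of those (61.3%) held the core, beside 1079 of 27025 genes overall (3.99%). The gamma-activated site TTCNNNGAA, which reads the same on both strands and can share bases with the first motif, was present for 7 of the 31 (22.6%) and for 9.55% of all genes. A match is a description of the letters and does not show that a factor binds.

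Library totals ran from 15103059 to 21738619 counts, and the 43 genes had between 16 and 10936 counts in each library, so none was measured at the detection limit. The columns of the table give the group and a running number from 1 to 4, which is used below to name libraries. The number appears in no label, so the columns do not tell which deletion approach or mouse a library belongs to, nor which before and after libraries share a mouse. Hira, the targeted gene, lay at 4.99 to 6.29 CPM (counts scaled to TMM-adjusted library size) in the 8 control libraries. It lay at 3.04 to 4.56 CPM in the 8 HIRA KO libraries, with no overlap at either time. Its log2 fold change was -0.70 before and -0.69 after regeneration (edgeR quasi-likelihood, adjusted p = 0.129 and 0.0666). DESeq2 gave adjusted p-values of 0.0131 and 0.00473. By edgeR, the targeted gene itself thus missed the threshold used below at both times. A lack of edgeR calls between genotypes therefore does not show that a gene was unchanged. The markers of hepatocytes were present in every library at a summed 104863 to 163601 CPM. HIRA KO libraries 1 and 2 stood apart from libraries 3 and 4 at both times on the second principal component of all genes. Before regeneration, they also held more RNA of 7 stellate cell markers (597 and 477 CPM, against 249 and 265 in libraries 3 and 4 and 222 to 250 in control) and of cholangiocyte markers (143 and 97.3 CPM, against 47.8 to 73.8 in the other libraries before regeneration). B and plasma cell markers summed to 86.2 and 20.0 CPM in libraries 1 and 2 before regeneration and to 69.1 and 14.7 after it, against 2.25 to 8.50 elsewhere. Results are therefore given with and without these 4 libraries, and the part these cells had in them was not tested.

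Compared per length, the most abundant of the 43 genes was Bst2, with a median of 248 FPKM (fragments per kilobase of transcript and library depth) over the 16 libraries and a range of 130.4 to 573. Ifi27, a small mitochondrial and endoplasmic reticulum protein that interferon induces, followed at 169 FPKM (86.9 to 682), and Iigp1, a GTPase that attacks the vacuoles of intracellular parasites, at 109 FPKM (71.4 to 161). The ranges of these 3 genes overlap. Irf7 had a median of 43.2 FPKM, Ifi27l2b of 39.4 and Isg15 of 35.5. The lowest medians were those of Ifit2 at 1.82, Oas2 at 1.75, Mx1 at 1.49 and Oas3 at 0.808 FPKM. The interferon program was thus measurable in every liver, controls before regeneration included.

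A plain summary of the 43 genes, the mean of log2(CPM + 1) over them, separated the time points more than the genotypes. In control livers before regeneration it was 4.60, 4.71, 4.32 and 4.07 in libraries 1 to 4, and in HIRA KO livers it was 3.71, 3.95, 3.88 and 4.08. HIRA KO library 4 alone reached the level of the lowest control. After regeneration, control libraries stood at 5.13, 5.39, 5.48 and 5.74. The HIRA KO libraries split into 4.80 and 4.45 for libraries 1 and 2, below every control, and 5.88 and 5.87 for libraries 3 and 4, above every control. The group means were 4.42 ± 0.29, 3.91 ± 0.15, 5.44 ± 0.25 and 5.25 ± 0.73 (SD, n = 4) for control and HIRA KO livers before regeneration, then for both in the same order after it.

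**Figure D1:**
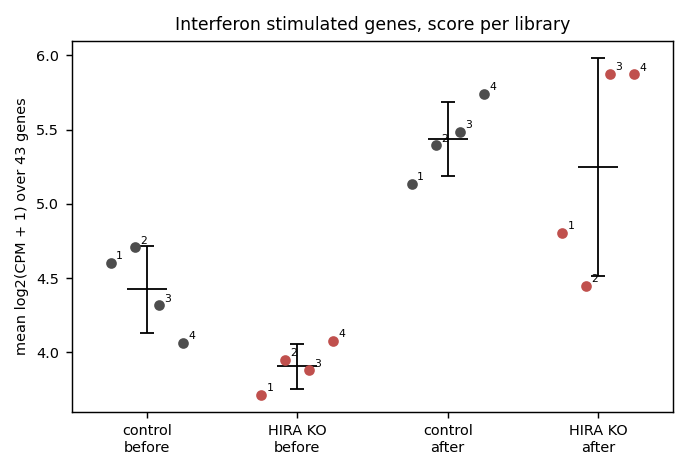
Mean log2(CPM + 1) over the 43 interferon stimulated genes (y axis) in each of the 16 libraries, by group (x axis), with the running number of the library at each point and bars for the mean ± SD of 4 libraries. All libraries after regeneration lie above the HIRA KO libraries before it, and after regeneration HIRA KO libraries 1 and 2 (4.80 and 4.45) lie below all controls while libraries 3 and 4 (5.88 and 5.87) lie above them.

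The comparison of HIRA KO with control livers before regeneration asks whether the loss of the chaperone alone altered these genes in a liver at rest. Of the 43 genes, 42 had a lower fitted level in HIRA KO and 1 a higher one, with a median log2 fold change of -0.61 beside 0.01 over all genes tested. Ifi27l2b, which was higher, was the 1 gene of the 43 called (adjusted p under 0.05 in edgeR's quasi-likelihood test, Benjamini-Hochberg adjusted across 23018 genes), and none was called lower. All genes together were called at 0.0391% (9 of 23018). At an unadjusted p under 0.05, 18 of the 43 were lower, beside 5.95% of all genes. Counting both directions, 19 genes reached that level, and 6 to 24 did with each library left out in turn. The lowest counts were 6 without HIRA KO library 1 and 8 without control library 1 or 2, all before regeneration. The matching shares of all genes were not computed. The median log2 fold change stayed between -0.44 and -0.70 in these fits. The HIRA KO and control libraries did not overlap, with HIRA KO the lower, for 15 of the 43, beside 4.53% of all genes. These 15 were Irf7, Irf9, Usp18, Eif2ak2, Ifit1, Ifit3, Isg15, Rsad2, Cmpk2, Rtp4, Ifi35, Lgals3bp, Ifi47, Igtp and Irgm1.

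Ifi27l2b (ENSMUSG00000021208.9, GRCm38 chromosome 12, 103450898 to 103457223, minus strand) belongs to the same small family as Ifi27 and lies beside it. It stood at 5.37, 6.40, 9.96 and 6.10 CPM in the control libraries before regeneration and at 41.9, 31.2, 21.0 and 18.1 CPM in the HIRA KO libraries. Every HIRA KO library exceeded every control, and libraries 1 and 2 were the highest. The log2 fold change was 2.01 ± 0.300 (SE, edgeR quasi-likelihood, adjusted p = 0.0285). Without HIRA KO libraries 1 and 2 it was 1.49 with an adjusted p of 0.294. The call was also lost when HIRA KO library 1 (adjusted p = 0.0691) or 2 (0.141), or control library 1 (0.171), 2 (0.0763) or 4 (0.0666), was left out alone, all before regeneration. Its neighbours Ifi27 and Ifi27l2a were not called, with log2 fold changes of -0.33 and -0.05. Reads of Ifi27l2a and Ifi27l2b may be split between these near copies.

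The IFIT proteins had the lowest median among the role groups, -1.30 over 3 genes, and none was called. Ifit1 (ENSMUSG00000034459.8, chromosome 19, 34640871 to 34650009, plus strand) measured 37.7, 32.2, 13.8 and 17.4 CPM in control and 3.81, 9.87, 8.57 and 12.3 CPM in HIRA KO libraries. The groups did not overlap, but control libraries 3 and 4 lay close to the highest HIRA KO library, and the log2 fold change of -1.55 ± 0.657 had an adjusted p of 0.344 (edgeR quasi-likelihood). Isg15 (ENSMUSG00000035692.7, chromosome 4, 156199424 to 156200818, minus strand) measured 25.9, 28.9, 13.4 and 15.0 CPM in control and 3.92, 6.74, 6.73 and 10.3 CPM in HIRA KO. It had the most negative value of the 43 genes, -1.59 ± 0.611 on the log2 scale, with an adjusted p of 0.309. Irf7 (ENSMUSG00000025498.15, chromosome 7, 141262706 to 141266481, minus strand) had tight control values of 70.0, 84.0, 78.2 and 69.8 CPM. Its HIRA KO values of 28.0, 33.7, 45.5 and 58.4 CPM were all lower, with a log2 fold change of -0.87 ± 0.392 (adjusted p = 0.367). The exons of Irf7 overlap those of Phrf1 on the other strand, and whether strand was used in counting is not given in the sources used here.

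Other role groups showed smaller differences before regeneration. The median log2 fold change of the transcription factors and feedback genes was -0.76, that of the 14 other genes -0.78, the GTPases -0.54, the sensors -0.41, the OAS group -0.32 and the IFI27 family -0.05. Iigp1, the most abundant GTPase by CPM, measured 503, 541, 324 and 327 CPM in control livers, against 249.7, 291, 266 and 355 CPM without HIRA. The ranges overlapped (-0.54 ± 0.248, adjusted p = 0.362, edgeR quasi-likelihood). Bst2 ran from 112 to 155 CPM in control and from 96.8 to 123 in HIRA KO, again with overlap. DESeq2 on the same counts called 3 of the 43 genes, beside 1.63% of all genes. Besides Ifi27l2b these were Usp18, the protease that removes Isg15 and blunts the receptor (-1.24, adjusted p = 0.0432), and the GTPase Ifi47 (-1.22, adjusted p = 0.0374), named here after their values were seen. In edgeR's test their adjusted p-values were 0.245 and 0.229. Without HIRA KO libraries 1 and 2, none of the 43 was called (smallest adjusted p = 0.26), while 19 were lower at an unadjusted p under 0.05, beside 3.76% of all genes, with a median of -0.54.

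**Figure D2:**
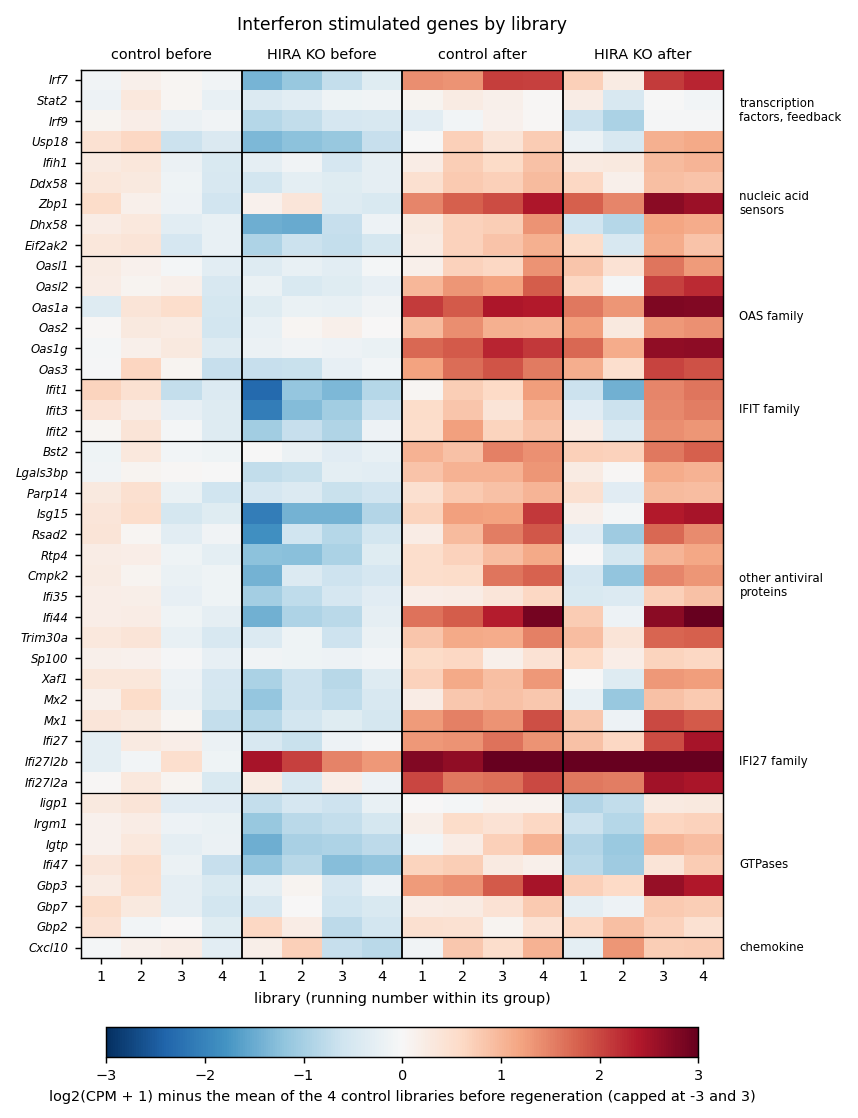
Heat map of the 43 genes (rows, by role group) in the 16 libraries (columns, by group). Colour gives log2(CPM + 1) minus the mean of the 4 control libraries before regeneration, capped at -3 and 3. Most rows are below the control mean in the HIRA KO libraries before regeneration, and after regeneration HIRA KO libraries 1 and 2 are lower than libraries 3 and 4 in most rows.

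Regeneration in control livers was accompanied by a rise of the interferon stimulated genes. Between the tissue removed at surgery and the liver regrown 5 days later, 18 of the 43 genes rose and none fell (edgeR quasi-likelihood, adjusted p under 0.05), beside 6.04% of all genes that rose and 4.17% that fell. The median log2 fold change was 0.84, beside 0.00 over all genes. Values after regeneration exceeded every value before it for 24 of the 43, beside 10.0% of all genes. DESeq2 called 24 higher, beside 7.79% of all genes. The edgeR count moved to 11 without control library 4 after regeneration, or without control library 3 or 4 before it. Calls over all genes, in either direction, fell too, from 2350 of 23018 to 1519, 1948 and 1615 in the same order.

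Of the OAS group 5 of 6 genes rose in control livers, with a median of 1.65. Oas1g (ENSMUSG00000066861.14, chromosome 5, 120876142 to 120887613, minus strand), a near copy of Oas1a, went from 1.74, 2.21, 2.52 and 1.18 CPM before to 8.39, 9.23, 12.9 and 11.6 CPM after regeneration. No values overlapped, and the log2 fold change was 2.45 ± 0.333 (edgeR quasi-likelihood, adjusted p = 0.000463). The sixth gene, Oasl1, is the most abundant by CPM of the group and represses translation of Irf7. It measured 38.6, 35.1, 30.9 and 25.9 CPM before and 36.3, 52.8, 49.9 and 83.9 CPM after, with overlap of a single library (0.77 ± 0.254, adjusted p = 0.0676).

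All 3 genes of the IFI27 family rose in control livers. Ifi27l2b went to 51.9, 48.0, 80.0 and 94.6 CPM, far above the 9.96 CPM of its highest library before, with the largest change of the 43 genes (3.30 ± 0.311 on the log2 scale, edgeR quasi-likelihood, adjusted p = 5.22e-05). Ifi27 (ENSMUSG00000064215.13, chromosome 12, 103434211 to 103440239, plus strand) went from 88.5, 132, 124 and 95.8 CPM to 271, 278, 340.1 and 278 CPM. That is a log2 fold change of 1.40 ± 0.323 (adjusted p = 0.012). Ifi27l2a rose by a log2 fold change of 2.03.

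The 14 other genes split in control livers, with 6 called. Ifi44 (ENSMUSG00000028037.13, chromosome 3, 151730922 to 151749960, minus strand), an antiviral protein of the cytoplasm, went from 9.90, 10.1, 7.73 and 6.93 CPM to 28.7, 32.6, 47.8 and 68.7 CPM. Its log2 fold change of 2.36 ± 0.616 was called at an adjusted p of 0.0282 (edgeR quasi-likelihood). The adjusted p rose above the threshold, to between 0.0619 and 0.0855, when control library 3 or 4 after regeneration or any 1 control library before it was left out. Bst2 rose from 112, 155, 117 and 113 CPM to 254, 226, 351 and 321 CPM (1.21 ± 0.226). Mx1 rose by 1.75, and Trim30a by 1.19. Isg15, at 31.9, 48.1, 46.8 and 89.2 CPM after regeneration, lay above all libraries before it but was not called (1.38 ± 0.583, adjusted p = 0.171). It was called by DESeq2 (adjusted p = 0.0369) and by edgeR without HIRA KO libraries 1 and 2 (0.0366).

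Irf7 led the factors, rising from 69.8 to 84.0 CPM before to 199.7, 192, 321 and 313 CPM after regeneration (1.76 ± 0.399, edgeR quasi-likelihood, adjusted p = 0.0122). The other 3 genes of its group were not called, and Stat2 and Irf9, which form the activated complex, had log2 fold changes of 0.11 and -0.06. Of the sensors, Ddx58 (RIG-I) and Zbp1 rose, by 0.72 and 1.98. Ifih1, which encodes the double-stranded RNA sensor MDA5, measured 52.2, 54.4, 38.0 and 31.1 CPM before and 50.2, 72.2, 64.4 and 79.4 CPM after (0.60 ± 0.206, adjusted p = 0.0768). Without control library 1 after regeneration its adjusted p was 0.0458, and that of Oasl1 0.0287.

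Several genes of the program were not called in control livers, most of the GTPases among them. Iigp1 measured 417, 397, 440.4 and 445 CPM after regeneration, within its range before it, with a log2 fold change of 0.00 ± 0.247. Gbp3 was the single GTPase of 7 that rose (1.85, adjusted p = 0.0248, edgeR quasi-likelihood). The IFIT genes were not called, and Ifit1 at 24.4, 39.3, 35.8 and 57.1 CPM overlapped its earlier values (0.63 ± 0.626, adjusted p = 0.62). Cxcl10, a chemokine for T cells, stayed low at 5.86 to 8.93 CPM before and 6.89 to 16.4 CPM after (0.67 ± 0.407, adjusted p = 0.354).

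**Figure D3:**
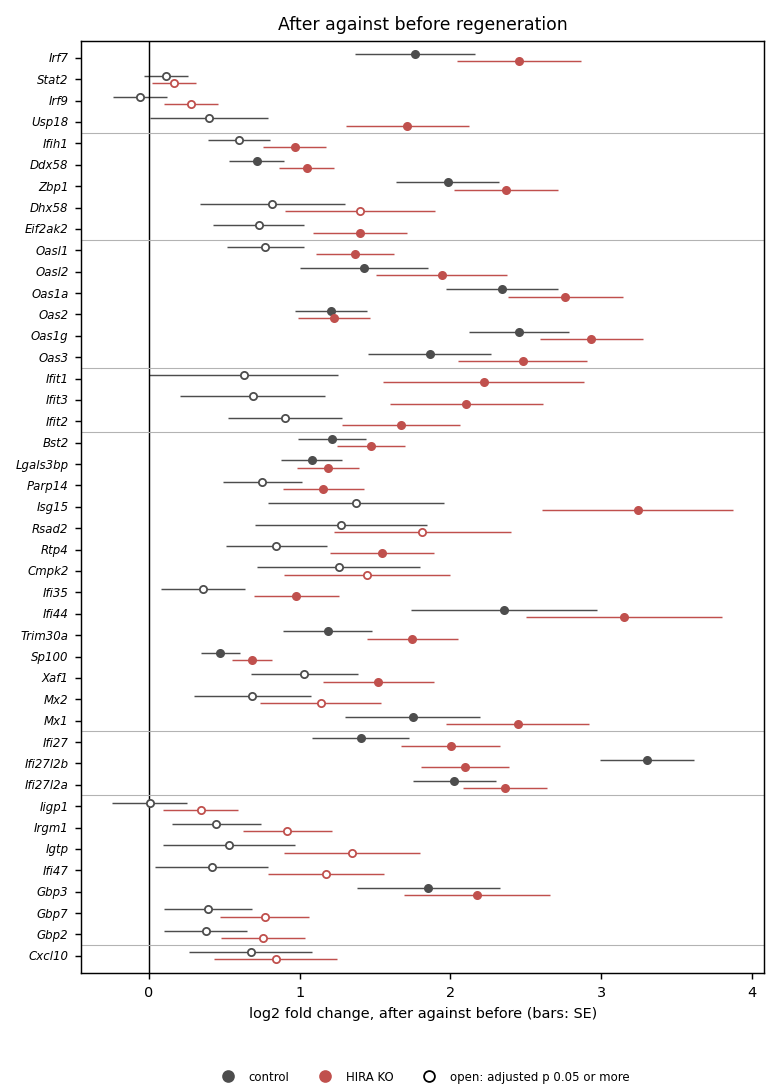
Log2 fold change after against before regeneration (x axis) of each of the 43 genes (y axis, by role group) in control and in HIRA KO livers, with bars for the SE. Filled points have an adjusted p under 0.05 (edgeR), which holds for 18 genes in control and 30 in HIRA KO.

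In HIRA KO livers, 30 of the 43 genes rose over regeneration and none fell (edgeR quasi-likelihood, adjusted p under 0.05), beside 6.48% of all genes that rose and 5.53% that fell. The fitted change was positive for all 43, with a median log2 fold change of 1.47 beside 0.02 over all genes. In 25 genes the lowest library after regeneration exceeded the highest before it, beside 8.61% of all genes. The 30 included all 18 genes called in control and 12 more, which were Eif2ak2, Ifi35, Ifih1, Ifit1, Ifit2, Ifit3, Isg15, Oasl1, Parp14, Rtp4, Usp18 and Xaf1. The remaining 13 were called in neither genotype by edgeR. DESeq2 called 39 of the 43 higher in HIRA KO, beside 8.13% of all genes, among them 9 of these 13. Fitted on the HIRA KO groups alone, 19 were called. Calls over all genes, in either direction, fell there too, from 2764 of 23018 to 1340 of 23015.

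Isg15 had the largest change in HIRA KO livers. It went from 3.92, 6.74, 6.73 and 10.3 CPM to 22.1, 18.9, 108 and 113 CPM, a log2 fold change of 3.24 ± 0.635 (edgeR quasi-likelihood, adjusted p = 0.00654). Libraries 3 and 4 after regeneration held several times the level of libraries 1 and 2, yet all 4 lay above all libraries before. Ifi44 went from 2.54, 4.07, 4.42 and 6.95 CPM to 15.1, 7.59, 61.5 and 75.5 CPM (3.15 ± 0.651, adjusted p = 0.00883). Oas1g went from 1.53, 1.67, 1.56 and 1.50 CPM to 8.43, 5.20, 17.2 and 17.4 CPM (2.94 ± 0.344, adjusted p = 0.000134). Fitted on the HIRA KO groups alone, Isg15 had an adjusted p of 0.0532 and Ifi44 of 0.0741.

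All 6 genes of the OAS group and all 3 IFIT genes rose in HIRA KO livers, with medians of 2.21 and 2.11. Ifit1 measured 14.6, 7.90, 65.9 and 72.5 CPM after regeneration against 3.81 to 12.3 before, so that library 2 overlapped its earlier range. Its call was marginal (2.22 ± 0.665, adjusted p = 0.0477, edgeR quasi-likelihood) and was lost, at adjusted p-values of 0.0779 to 0.123, without library 3 or 4 after regeneration or without any 1 of the 4 libraries before. It was also lost on the HIRA KO groups alone (adjusted p = 0.162), without a filter on low counts (0.0772) and with limma on log2(FPKM + 1) (0.0824). Oasl1 reached 57.9, 43.7, 99.9 and 79.7 CPM from 24.4 to 31.1 CPM (1.37 ± 0.257, adjusted p = 0.00361).

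Of the factors and sensors, Irf7 went from 28.0 to 58.4 CPM before to 123, 89.5, 327 and 369 CPM after regeneration (2.46 ± 0.409, edgeR quasi-likelihood, adjusted p = 0.0022). Usp18 also rose, by 1.72 ± 0.407 (adjusted p = 0.0164). Ifih1 went from 35.6, 39.6, 30.0 and 35.6 CPM to 51.8, 52.7, 83.0 and 88.2 CPM (0.97 ± 0.208, adjusted p = 0.00709), and 4 of the 5 sensors rose.

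In the IFI27 family, Ifi27 went from 78.1, 67.6, 97.9 and 107 CPM to 201, 168, 427 and 609 CPM (2.00 ± 0.329, adjusted p = 0.00164). Ifi27l2b went from 18.1 to 41.9 CPM to 141, 134, 114 and 92.0 CPM (2.10 ± 0.291, edgeR quasi-likelihood, adjusted p = 0.000618). In contrast to Ifi27 and Isg15, the highest values of Ifi27l2b after regeneration were in libraries 1 and 2. Bst2 reached 201, 201, 372 and 432 CPM (1.47 ± 0.228, adjusted p = 0.000733). Of the 7 GTPases, edgeR called Gbp3 alone, at 2.18, whereas 6 reached an unadjusted p under 0.05 and DESeq2 called 6 higher. The exception was Iigp1, which measured 222, 247, 498 and 506 CPM after regeneration (0.34 ± 0.248, adjusted p = 0.406 by edgeR). Cxcl10, at 5.94, 20.4, 13.2 and 13.4 CPM, was not called.

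Leaving out HIRA KO libraries 1 and 2 at both times gave 40 of 43 genes called higher in HIRA KO, with a median of 1.99, beside 5.37% of all genes. The same fit called 30 genes higher in control, beside 8.97% of all genes. The control libraries and their median of 0.84 were the same there, and what differed was the spread shared over the groups.

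**Figure D4:**
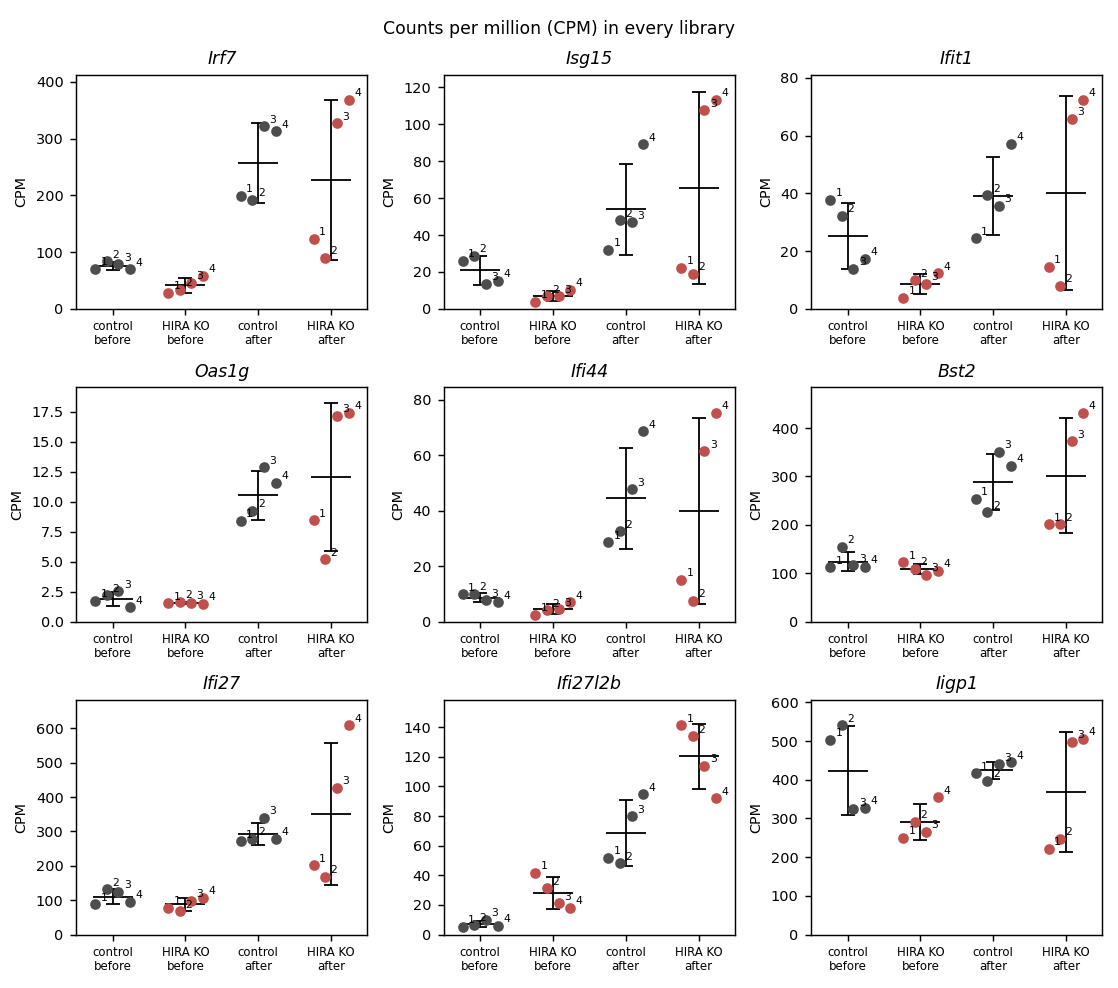
CPM (y axis, starting at 0) of 9 named genes in the 4 groups (x axis), 1 panel a gene, with the running number of each library at its point and bars for the mean ± SD of 4 libraries. In the HIRA KO group after regeneration, libraries 3 and 4 lie above libraries 1 and 2 for all of the genes shown except Ifi27l2b.

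The comparison of HIRA KO with control after regeneration asks whether the 2 genotypes still differed once the liver had regrown. None of the 43 genes was called by edgeR's quasi-likelihood test (smallest adjusted p = 0.177, for Ifi27l2b) or by DESeq2, beside 0.491% of all genes by edgeR and 3.95% by DESeq2. A single gene, again Ifi27l2b, reached an unadjusted p under 0.05, beside 15.8% of all genes. No gene had groups that did not overlap, beside 8.10% of all genes. The median log2 fold change was -0.06, beside 0.02 over all genes, with 19 values above 0 and 24 below, from -0.56 for Cmpk2, a mitochondrial nucleotide kinase, to 0.81 ± 0.280 for Ifi27l2b.

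The lack of calls went with a wide split inside the HIRA KO group. Relative to the 4 control libraries after regeneration, HIRA KO library 1 lay below all controls for 30 of the 43 genes and library 2 for 36. Library 3 lay above all controls for 28 genes and library 4 for 23, and each lay below them for 1. The median log2 ratio to the control mean was -0.71, -1.03, 0.37 and 0.33 in libraries 1 to 4. Isg15 illustrates the split, at 22.1 and 18.9 CPM in libraries 1 and 2 and 108 and 113 CPM in libraries 3 and 4, around control values of 31.9 to 89.2 CPM (0.27 ± 0.568, adjusted p = 0.863). Irf7 stood at 123 and 89.5 against 327 and 369 CPM, with controls at 192 to 321 CPM (-0.18 ± 0.386, adjusted p = 0.871, edgeR quasi-likelihood). The group means of Ifit1 were 39.1 ± 13.6 CPM in control and 40.2 ± 33.7 CPM in HIRA KO (SD, n = 4). Before regeneration no such split was seen, since HIRA KO libraries 1 to 4 lay below all controls for 27, 25, 30 and 18 genes.

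Without HIRA KO libraries 1 and 2, 41 of 43 genes were higher in HIRA KO after regeneration, with a median of 0.40. None was called (smallest adjusted p = 0.0985, Ifi27 at 0.83), and 11 were higher at an unadjusted p under 0.05, beside 4.93% of all genes. The sign turned with this choice for 22 of the 43 genes, among them Irf7 (from -0.18 to 0.44), Ifi44 (from -0.16 to 0.62) and Iigp1 (from -0.21 to 0.24). With 2 HIRA KO libraries at each time, these are assumed to vary like the other groups. All control libraries were kept in this fit, so the genotypes were not matched by running number.

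**Figure D5:**
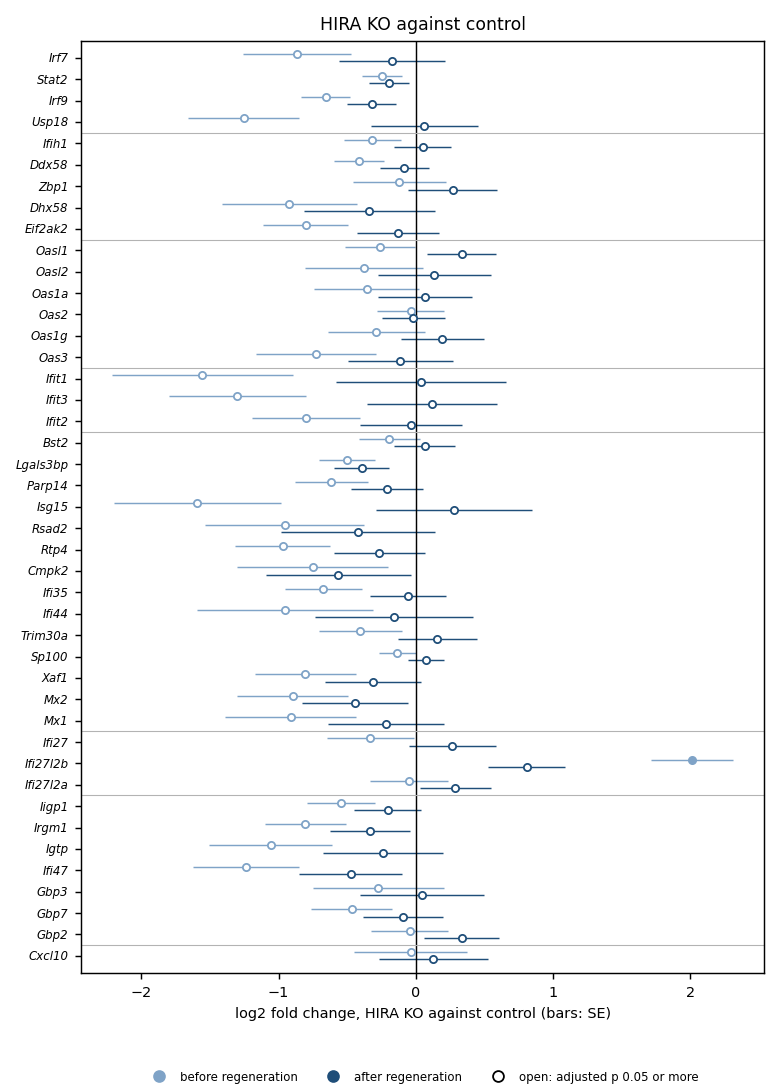
Log2 fold change of HIRA KO against control (x axis) for each of the 43 genes (y axis, by role group) before and after regeneration, with bars for the SE. Filled points have an adjusted p under 0.05 (edgeR), which holds only for Ifi27l2b before regeneration, at 2.01. Values before regeneration lie left of 0 for the other 42 genes, and values after it lie on both sides of 0.

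Whether the HIRA KO effect itself differed between the time points was tested as the difference of both differences, which shares its libraries with the comparisons above. None of the 43 genes was called by edgeR's quasi-likelihood test or by DESeq2. Of all genes, edgeR called 0% and DESeq2 called 67 of 23018, in either direction. At an unadjusted p under 0.05 there were 3 of the 43, beside 6.81% of all genes. These were Isg15 (1.87 ± 0.832), Usp18 (1.32 ± 0.560) and Ifi27l2b (-1.20 ± 0.404), with adjusted p-values of 0.714, 0.69 and 0.547, named after their values were seen. The fitted difference was above 0 for 42 of 43 genes, with a median of 0.48 beside -0.02 over all genes. The 12 genes called over regeneration in HIRA KO alone are therefore not shown to respond differently between the genotypes. Without HIRA KO libraries 1 and 2, again none was called, the median was 0.93, and 30 of the 43 were above 0 at an unadjusted p under 0.05, beside 4.28% of all genes. All control libraries were kept in this fit, though they too differed by running number. Their mean log2(CPM + 1) over the 43 genes before regeneration was 4.60 and 4.71 in libraries 1 and 2, against 4.32 and 4.07 in libraries 3 and 4. After it the values were 5.13 and 5.39, against 5.48 and 5.74. Whether a running number means the same in both genotypes is not known, and a fit matched by it was not tested.

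The rest of the pathway was read from lists of its other genes. Genes of these lists that DESeq2 alone called are named after their values were seen. None of the 21 interferon genes reached 10 counts. Together they had 26 counts in all 16 libraries, 15 of them had none, and no library held more than 6, so a change of the ligands was not detectable at this depth. Of 10 receptor and JAK-STAT genes, edgeR called none between genotypes, with 2 before and 4 after regeneration lower at an unadjusted p under 0.05. Of all genes, 5.95% were lower at that level before regeneration, and 15.8% reached it in either direction after. DESeq2 called 3 of the 10 lower in HIRA KO after regeneration, the receptor chains Ifnar1 (-0.32, adjusted p = 0.0473) and Ifnar2 (-0.38, adjusted p = 0.0491) and the kinase Tyk2 (-0.32, adjusted p = 0.00812). DESeq2 called 3.95% of all genes after regeneration, in either direction. By edgeR, 2 of the 10 rose over regeneration in control and 3 in HIRA KO, beside 6.04% and 6.48% of all genes.

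Among 17 sensors, adaptors, kinases and interferon regulatory factors around the induction of interferon, edgeR called none between genotypes. At an unadjusted p under 0.05 there were 5 before regeneration and 3 after it. Of all genes, 3031 of 23018 reached that level before and 15.8% after, so the 3 lay near the share of all genes. DESeq2 called Irf5 lower in HIRA KO before regeneration (-0.71, adjusted p = 0.0394), and after it the kinases Ikbke (-0.70, adjusted p = 0.024) and Tbk1 (-0.51, adjusted p = 0.0127). DESeq2 called 1.63% of all genes before regeneration and 3.95% after it. Over regeneration edgeR called 6.04% of all genes higher and 4.17% lower in control, and 6.48% and 5.53% in HIRA KO. Of the 17, 5 rose and 2 fell in control, and 3 rose and 1 fell in HIRA KO. The genes that fell were Mavs, the mitochondrial adaptor of RIG-I and MDA5 (-0.68 in control, adjusted p = 0.0102, and -0.79 in HIRA KO, adjusted p = 0.00409, edgeR quasi-likelihood), and in control Irf2, a repressor of the response (-0.45, adjusted p = 0.0344). Of 6 negative regulators, 1 rose in each genotype and neither edgeR nor DESeq2 called any between genotypes. At each time 1 had an unadjusted p under 0.05. In a list of 6, a count of 1 cannot be set apart from the shares of all genes above.

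A longer list of 71 further interferon stimulated genes had medians of the same sign as the 43 in each comparison. Before regeneration edgeR called none between genotypes, with a median of -0.37. At an unadjusted p under 0.05, 19 were lower, beside 5.95% of all genes. DESeq2 called 3 lower, Nlrc5, Ifitm3 (-0.83, adjusted p = 0.0313) and Pml (-0.58, adjusted p = 0.0195). It called 1.63% of all genes in either direction. Over regeneration edgeR called 19 higher in control (median 0.67) and 43 in HIRA KO (median 1.01), and none lower. Of all genes, 6.04% and 6.48% were called higher. Slfn1 (2.22), Slfn9 (2.10) and Ifi205 (1.84) changed most in control, and Ifit1bl2 (3.20), Phf11a (2.68) and Slfn9 (2.52) in HIRA KO. After regeneration edgeR called 1 gene between genotypes, Nlrc5, the transactivator of MHC class I genes, beside 0.491% of all genes. DESeq2 called Nlrc5 and Helz2 (-0.51, adjusted p = 0.00432), beside 3.95% of all genes. Nlrc5 measured 32.3, 41.5, 34.0 and 31.3 CPM in control and 19.7, 19.8, 23.5 and 25.0 CPM in HIRA KO, without overlap (-0.66 ± 0.142, adjusted p = 0.0464 by edgeR). It was as low before regeneration, at 19.5 to 23.4 CPM in HIRA KO against 28.3 to 47.1 CPM in control, where edgeR gave -0.73 with an adjusted p of 0.0804 and DESeq2 an adjusted p of 0.00209. After regeneration HIRA KO libraries 1 and 2 lay below libraries 3 and 4 for Nlrc5 too, but all 4 stayed below every control.

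Markers of some other liver cells moved with regeneration too. The 8 Kupffer cell markers summed to 149 to 402 CPM in control and 199 to 235 CPM in HIRA KO before regeneration and to 732 to 930.2 and 689 to 1105 CPM after it. All 8 rose in both genotypes, with medians of 1.13 and 1.59. Between genotypes none of the 8 was called, and before regeneration all 8 had lower fitted levels in HIRA KO, with a median of -0.36. The 4 general leukocyte markers summed to 21.9 to 61.5 CPM before and 69.8 to 109 CPM after, with 4 called higher in control and 3 in HIRA KO. Of 7 monocyte and neutrophil markers, 2 rose in each genotype, 2 of 6 endothelial markers fell in each, and no T or NK cell marker was called. Of 8 hepatocyte markers, 1 fell in control and 2 in HIRA KO. No stellate cell marker was called. In control alone 1 cholangiocyte and 1 B or plasma cell marker rose, and in HIRA KO alone 1 plasmacytoid dendritic cell marker. Of all genes, 6.04% rose and 4.17% fell in control, and 6.48% rose and 5.53% fell in HIRA KO. In lists this short, a count of 1 cannot be set apart from these shares. The share that Kupffer cells and leukocytes had in the rise of the interferon stimulated genes was not tested.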

How the data were processed

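Poly-A RNA of liver was sequenced from strand-marking libraries. The authors aligned reads to mm10 with STAR. For gene counts the paper names HOMER, whereas the submitters' processing notes name HTSeq and Cufflinks, so the tool behind the deposited counts is not settled. The deposited gene counts are unnormalized, and the deposited FPKM values are scaled by gene length and depth. The tool behind the FPKM table and the strand setting are not given in the sources used here. Counts were scaled by TMM (factors 0.915 to 1.10) and all genes with at least 10 counts in total were fitted with 1 mean per group in edgeR 4.0.16 (quasi-likelihood, robust, R 4.3.3), with Benjamini-Hochberg adjustment over 23018 genes and a threshold of 0.05. SE is the log2 fold change over the root of F. DESeq2 1.42.0 on counts and limma 3.58.1 on log2 of the deposited FPKM + 1 were alternatives. The scripts were tested on simulated counts. Over 24 replicate pairs chi-square per degree of freedom was 12.4 to 135, so no library was counted as a copy of another. In the paper, the lobes removed at surgery were the tissue before regeneration, and the operated mice later gave the regrown liver. The columns do not tell which libraries share a mouse, so all 16 were fitted as independent. The p-values measure the spread between these samples and leave this pairing out. The 43 genes and all lists were chosen with earlier results of these data known. Values per library are given for the most abundant gene by CPM of each role group, for the called genes with the largest changes (at most 3 a direction and comparison), and for Hira. Of the pathway lists at most 3 called genes a direction and comparison are named. All 43 IDs were found in GENCODE release M21, 41 with the same version. Mx2 is annotated there as a polymorphic pseudogene. Exons of 7 genes overlap another gene on the same strand and of 9 on the other, so their reads are uncertain, as are those of near copies (Oas1a and Oas1g, Gbp and IFIT genes).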

Additional observations from a re-analysis of the deposited data

Results flagged for a closer look

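In 5 of 180 groups of 4 libraries tested, 1 library lay farther from the other 3 than Dixon's 95% limit allows, and chance gives about 1 in 20. Mx2 stood at 13.8 CPM in control library 1 after regeneration and at 21.2 to 22.1 in the other 3. Bst2 stood at 155 CPM in control library 2 before regeneration, against 112 to 117. Ifi27 stood at 340.1 CPM in control library 3 after regeneration, against 271 to 278, and Gbp2 at 8.56 CPM in the same library, against 11.2 to 11.7. Hira stood at 4.56 CPM in HIRA KO library 4 after regeneration, against 3.04 to 3.29.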

How the results depend on the processing

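No paired analysis was possible because the columns carry no replicate number of the labels. For the same reason the planned fits with the deletion approach as a covariate and with the mouse as a block were not run. Leaving out HIRA KO libraries 1 and 2 was chosen after seeing the data. Of the 43 genes, the number called between genotypes before regeneration, 1 in the fit reported, was 3 with DESeq2, 0 with limma on log2(FPKM + 1), 0 with the compared groups alone, 0 without HIRA KO libraries 1 and 2, and 0 to 1 with each library left out in turn. Over regeneration the count was 30 in control without HIRA KO libraries 1 and 2 and 11 to 18 with each library left out. In HIRA KO it was 19 with the compared groups alone and 26 to 37 with each library left out. The fall to 11 came without control library 4 after regeneration or control library 3 or 4 before it. In these fits, and with the HIRA KO groups alone, fewer of all genes were called as well. After regeneration, the small genotype differences changed sign readily. Of the 43 genes, 19 were above 0, against 41 without HIRA KO libraries 1 and 2 and 7 to 30 with each library left out, lowest without HIRA KO library 4 and highest without HIRA KO library 2. Ifit1 was -0.40 and -0.32 with limma on log2(FPKM + 0.1) and log2(FPKM + 1), and -0.41 to 0.38 with each library left out. Isg15 was -0.0642 and -0.0584 in the same fits and -0.13 to 0.68 with each library left out. Irf7 was 0.44 without HIRA KO libraries 1 and 2, and -0.51 to 0.0901 with each library left out. The change of Iigp1 over regeneration in control ran from -0.11 to 0.14. With 4 libraries a group, the small differences of the 43 genes between genotypes after regeneration lie within the spread of the libraries. Levels near 0 counts, as for the ligands, cannot be compared.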
